A study of Arabidopsis thaliana with 4 samples.

Results

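The scattered enriched tiles are spots of a genomic tiling array that had a high H4K20me1 ratio in both replicates. They lay outside the 3 long stretches of plates where high ratios are common. A tile was kept when its centred log ratio averaged at least 0.75 over the replicates and was above 0.4 in each, and when its plate was not among TA21 to TA30, TA35 to TA51 or TC17 to TC30. The rule left 371 tiles of 18190 outside these stretches (2.04%) and of 21743 tiles with a value in all. Both thresholds without the limit on plates were met by 8.26% of all tiles. The tiles were chosen by the log ratios of both replicates, so their height and the nearness of the replicates in them are a description and carry no test.

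The array compared chromatin of 1 group, untreated whole seedlings of Arabidopsis thaliana ecotype Col-0, aged 10 days, kept at 22 °C in liquid culture with light for 16 h a day. An antibody against H4K20me1 was used to precipitate DNA (IP), which was hybridised against unselected DNA of the same chromatin (INPUT), in replicates I and II, each on a pair of dye-swapped arrays. Both arrays of a pair held identical values in all 21743 tiles, so each replicate gave 1 value per tile and n = 2 throughout. Whether I and II came from separate cultures is not stated in the labels, and p-values here reflect no more than the spread of these samples, possibly a technical one. In whole seedlings, fewer cells that carry a mark and less of it in each cell cannot be told apart.

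H4K20me1 is histone H4 with a single methyl group on a lysine of its tail. In animals the mark is set by the SET8 (PR-Set7) enzyme, varies with the cell cycle and has been found both over transcribed genes and in compacted chromatin. In Arabidopsis, staining of nuclei has placed it mainly in the condensed chromocentres, which hold centromeric repeats and silent transposable elements. Tiles here are named by set (2 letters), plate, row A to H and column, with 96 wells on a full plate. Genome positions, genes and sequences were not used here, and "next" and "neighbouring" mean next in the order of these names.

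The deposited values are log ratios of unstated base, and neither the files nor the labels name the channel in the numerator. They are read here as IP over INPUT, the direction in which these tiles are enriched. That direction is not settled, and with the sign turned every tile called high here would be low. Over all tiles the medians were -1.42 (replicate I) and -1.15 (replicate II), and all values below are minus these medians. On the deposited scale, 61 of the 371 tiles were above 0 in replicate I and 78 in replicate II. High here therefore means above the typical tile.

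The enriched tiles ran from 0.416 to 4.42 in replicate I (median 1.04) and from 0.408 to 3.87 in replicate II (median 0.877). The other tiles outside the stretches had medians of -0.123 and -0.101. Most enriched tiles were only moderately high: the quartiles of their means were 0.837 and 1.13, and the mean was 1 or more in 151 tiles, 1.5 or more in 36 and 2 or more in 9. Replicate I was the higher in 267 of the 371 tiles (72.0%), with a median difference of 0.207. It was the higher in 52.5% of the other tiles, with a median difference of 0.0300. This was not particular to the scattered tiles. Tiles that met both thresholds inside the stretches had medians of 1.13 in replicate I and 0.899 in II (TA21 to TA30). The medians were 1.14 and 0.916 in TA35 to TA51, and 1.21 and 0.988 in TC17 to TC30. The 95th percentile of the other tiles outside the stretches was 0.746 in I and 0.646 in II. The median SD between replicates was 0.221 in the enriched tiles and 0.249 in the others.

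The thresholds cut through a continuous range. The 3 tiles just above the mean threshold were TB03C12 at 0.751, TB25D08 at 0.751 and TB01C05 at 0.751, and those just under it were TB89A08 at 0.749, TA06A04 at 0.749 and TA84B12 at 0.748. Close to the threshold on each replicate, TB76G04 (0.408 in replicate II), TA60A11 (0.410 in II) and TB51G11 (0.416 in II) were kept. TB36E05 (0.398 in II), TB90F02 (0.395 in I) and TB45D10 (0.393 in II) were not. In all, 61 tiles had a sufficient mean but failed in 1 replicate. The highest of these, TA01F10, which was picked out after its values were seen, had 4.19 in replicate I and 0.134 in replicate II.

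For orientation, limma called 8.24% of all tiles higher and 3.88% lower than the median, and 2.08% of the tiles outside the stretches higher (adjusted p of at most 0.05, Benjamini-Hochberg over all tiles, two-sided). It called 353 of the 371 enriched tiles, which were chosen on the same values, so this count is no evidence on them. With only the 18190 tiles outside the stretches in the fit, limma called 47 tiles higher. All 47 were among the 371, which again rests on the same values.

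**Figure D1:**
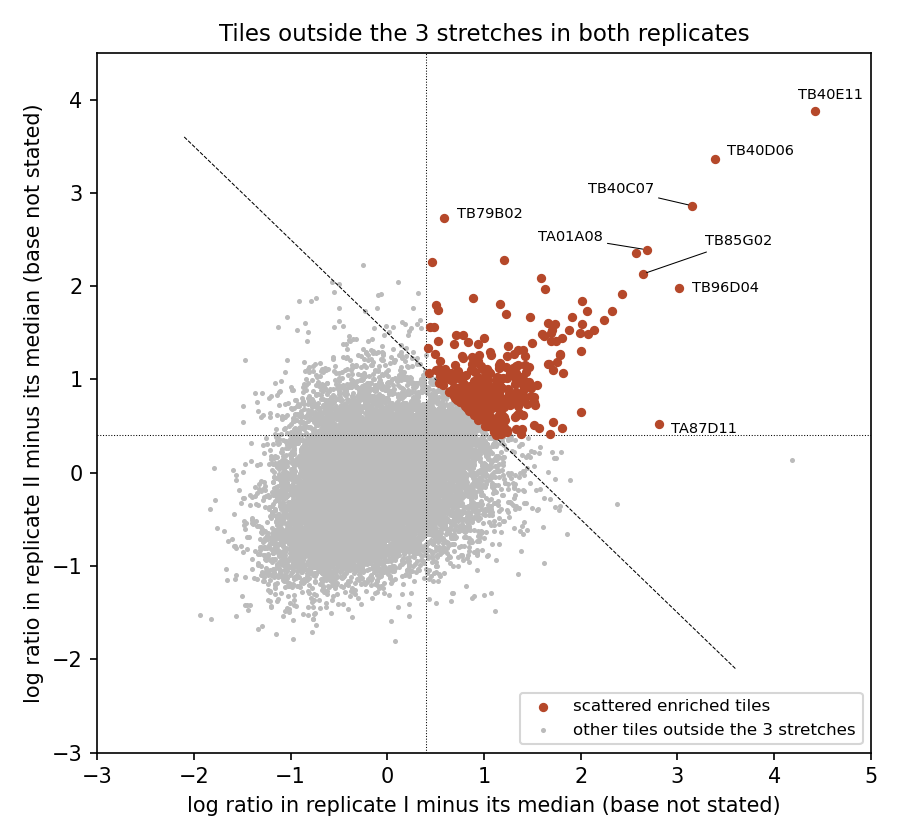
Each point is a tile outside the 3 stretches, with its centred log ratio (base not stated) in replicate I on the x axis and in replicate II on the y axis; enriched tiles are red and other tiles grey. Dotted lines mark 0.4 in each replicate and the dashed line a mean of 0.75. Most enriched tiles lie close to the thresholds, and 3 tiles of plate TB40 stand far out at means of 3.01 to 4.15.

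The highest values belonged to tiles of plate TB40. TB40E11 had 4.42 in replicate I and 3.87 in replicate II, TB40D06 had 3.39 and 3.37, and TB40C07 had 3.15 and 2.86. Their next wells were far lower, and 1 of these 6 was itself raised: the wells next to TB40E11 had means of 0.0777 and -0.0595, those next to TB40C07 had -0.548 and -0.717, and those next to TB40D06 had 0.821 and -0.00406. The median over plate TB40 was -0.160. The fourth enriched tile of the plate, TB40D11, had 2.01 and 1.60 and lay in the same column as TB40E11, in the row before it, so that these wells are 12 apart in the order of names. It was singled out after its values were seen.

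Other tall tiles came in both forms, alone and in a row. TB96D04 had 3.02 in replicate I and 1.98 in replicate II, TB85G02 had 2.64 and 2.13, and TA93F12 had 2.25 and 1.64. All of these stood alone: the means of their next wells lay between -0.454 and 0.299. The other members of the 10 highest, TA01A06 to TA01A09, were adjacent wells with 2.32, 2.57, 2.68 and 2.43 in replicate I and 1.74, 2.36, 2.39 and 1.92 in replicate II. Among the 36 tiles whose mean was 1.5 or more, 16 were in plate TA01 and 12 in set TB.

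Some enriched tiles were far taller in 1 replicate than in the other. TA87D11 had 2.80 in replicate I and 0.520 in replicate II, TB67B03 had 2.00 and 0.652, and TB28D05 had 1.81 and 0.483. In the opposite direction, TB79B02 had 0.587 in replicate I and 2.73 in replicate II, and TB20F05 had 0.462 and 2.26. The well after TB79B02 had the same pattern (-0.255 in I and 2.22 in II). The SDs of these 5 tiles, 0.940 to 1.62 (n = 2), are close to their means, which ran from 1.15 to 1.66.

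The enriched tiles were unevenly spread over the plates. They occurred on 124 of 191 plates. Of these, 55 plates had 1 and 30 had 2, while 18 plates with at least 5 each held 183 of the tiles. TA01 and TA57 had 23 each, TA59 had 18, TA55 had 13 and TA53 had 12, which made 24.0% of all enriched tiles on 5 plates. Against a background of 2.04% of the tiles outside the stretches, the share was 24.0% in TA01 and in TA57. Set TA held 230 enriched tiles (3.33% of its tiles outside the stretches), set TB 122 (1.27%), TC00 to TC13 12 (0.936%), TD 4 of 96 tiles and PD 3 of 316.

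**Figure D2:**
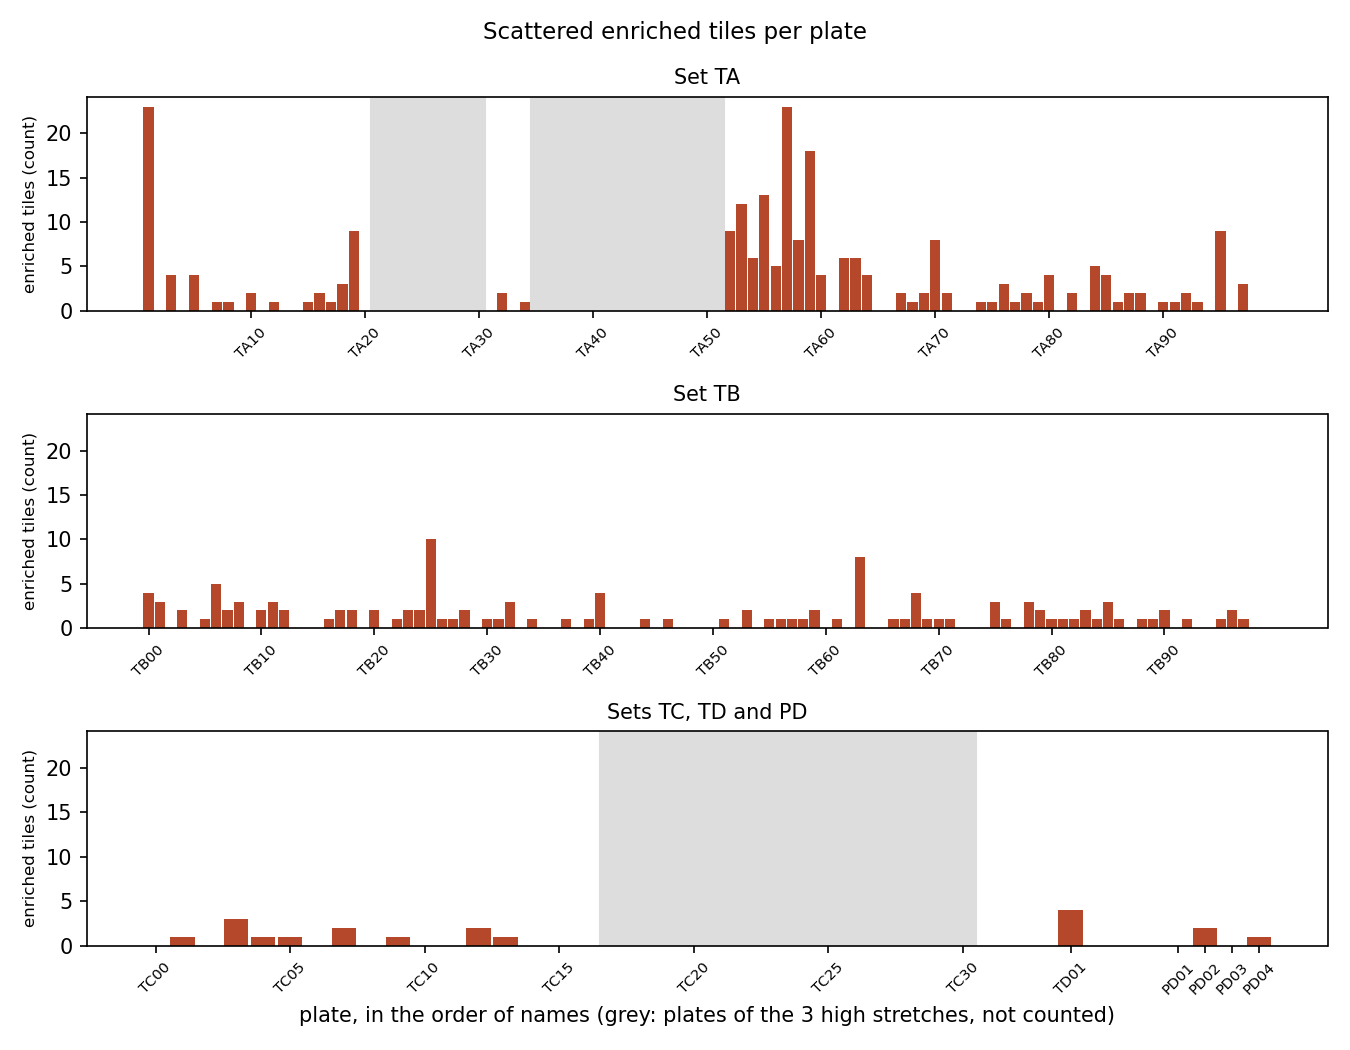
Bars give the number of enriched tiles on each plate, with plates in the order of names on the x axis and grey bands for the 3 high stretches, which were not counted. The tallest bars are TA01 and TA57 with 23 tiles each, and the 8 plates TA52 to TA59 form a block directly after the grey band that ends with TA51.

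The densest block adjoined a high stretch. The 8 plates TA52 to TA59, which follow TA51 in the order of names, held 94 enriched tiles, or 12.2% of their tiles, and 76 of these (80.9%) stood in runs. The count per plate did not fall steadily with distance from the stretch: from TA52 to TA59 it was 9, 12, 6, 13, 5, 23, 8 and 18. It was 4 in TA60 and 0 in TA61. Plate medians in this block were also raised, up to 0.458 in replicate I and 0.396 in replicate II in TA57. The block was delimited after its values were seen, next to a stretch whose end was itself set on these values.

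Fewer enriched tiles lay at the other edges of the stretches. TA31 to TA34, between both TA stretches, had 3 enriched tiles among 384 (0.781%), TA32B08, TA32F06 and TA34E06, all isolated. On the near side of TA21, TA11 to TA20 had 17 of 951 (1.79%), of which TA19 alone held 9 and TA20 held 0. The difference between these edges was not tested.

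Runs of consecutive wells held 178 of the 371 enriched tiles (48.0%), in 54 runs of at least 2 wells. The other 193 (52.02%) had no enriched tile in the next well, and 150 (40.4%) had none within 5 wells on either side and are called isolated. Of 364 gaps between successive enriched tiles, counted within a set and not across a stretch, 124 were of 1 well, 39 of 2 to 5, 131 of 6 to 96 and 70 of over 96, up to 515 wells. The median gap was 9 wells. On average 1 tile in every 49.0 was enriched, but this is a mean spacing and no like measure to set against a median gap. By this measure of isolation, 40.4% of the tiles were scattered and 48.0% stood in runs. The other 43 were single wells with another enriched tile within 5 wells. Without TA52 to TA59 the number in runs was 102 of 277 (36.8%), and without TA01 as well it was 83 of 254 (32.7%), with 138 isolated (54.3%). These 9 plates held 31.5% of the enriched tiles.

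Isolated tiles were the more common form in set TB, and runs in set TA only through 9 of its plates. In set TA 141 of 230 enriched tiles (61.3%) stood in runs and 68 (29.6%) were isolated. Without TA01 and TA52 to TA59, 46 of the remaining 113 tiles of set TA (40.7%) stood in runs and 56 (49.6%) were isolated. In set TB 31 of 122 (25.4%) stood in runs and 70 (57.4%) were isolated. The highest tile of set TB had a mean of 4.15, against 2.54 in set TA, but this rests on plate TB40. The highest TB tile on another plate, TB96D04, had 2.50. Means of at least 1.5 were held by 23 tiles in set TA, 16 of them in TA01, and by 12 in set TB. No test was made of the difference between the sets, since tiles are not replicates.

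The longest run, 19 wells from TA01A01 to TA01B07, opened set TA. In replicate I its tiles averaged 1.91, and 1.55 in replicate II, for a mean of 1.73 ± 0.252 (SD, n = 2), and the lowest tile in it still had a mean of 1.09. Both replicates were highest at TA01A08, with 2.68 and 2.39, and its first well, TA01A01, had 1.62 and 1.46. The well after the run, TA01B08, had 0.373 and 0.387. The remaining 77 wells of the plate had medians of -0.0304 and 0.175 and 4 further enriched tiles.

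The other 8 runs of at least 5 wells were lower, with means from 0.966 to 1.17. TA52A01 to TA52A05 (5 wells) had 1.39 in replicate I and 0.913 in replicate II and continued directly from the well TA51H12 at the end of the neighbouring stretch, which had 1.43 and 0.842. TA55G02 to TA55G07 (6 wells) had 1.23 and 0.885. In TA57 a run of 6 wells, TA57E06 to TA57E11, had 1.13 and 0.807, and after a single well at 0.586 and 0.451 a run of 8 wells, TA57F01 to TA57F08, had 1.02 and 1.04. That well, TA57E12, failed the rule but was above the plate's medians.

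Plate TA59 had runs of both 6 and 9 wells. TA59D07 to TA59D12 had 1.05 in replicate I and 0.887 in replicate II, and TA59G01 to TA59G09 had 1.02 and 0.961. Both replicates were highest at the middle well of the longer run, TA59G05, with 1.24 and 1.25. Farther from any stretch, TA70C09 to TA70D04 (8 wells) had 1.25 and 0.890 and TB06F05 to TB06F09 (5 wells) had 1.27 and 1.06. The well before TA70C09 was low in both replicates (-0.153 and -0.383). The well before TB06F05 was already high in replicate I at 0.764 but had -0.444 in replicate II.

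**Figure D3:**
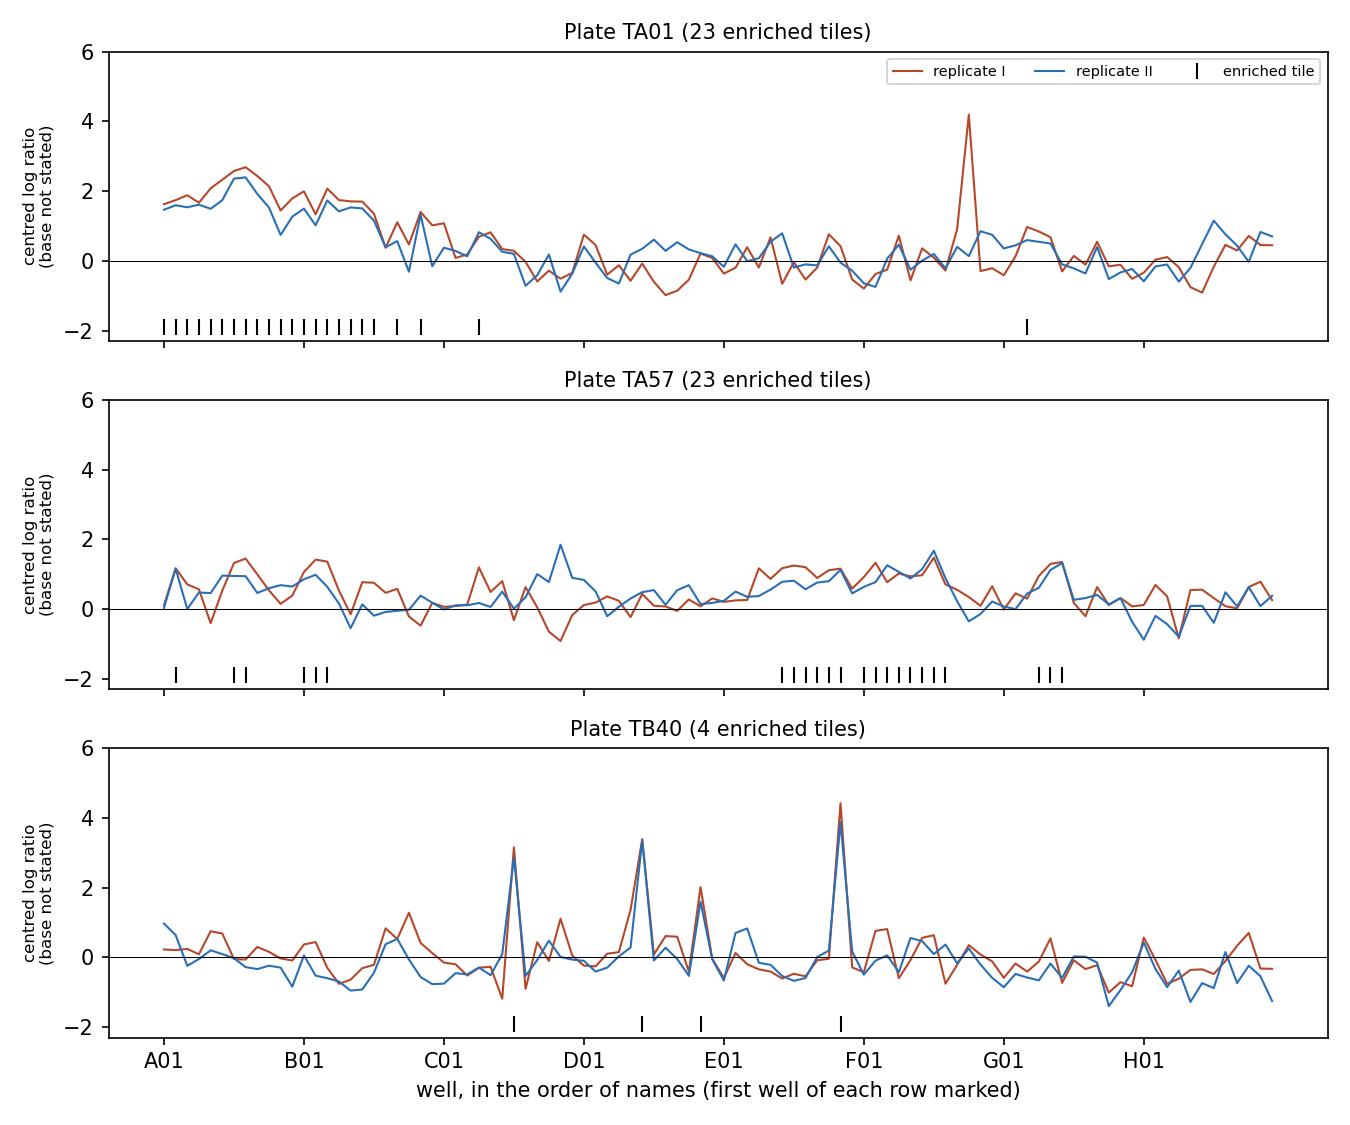
Centred log ratio (base not stated) along the wells of plates TA01, TA57 and TB40 in replicates I (red) and II (blue), with ticks under the enriched tiles. TA01 shows the run of 19 wells at its start and the peak at TA01F10 in replicate I alone, TA57 shows broad low runs, and TB40 shows 4 narrow spikes.

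Wells beside an enriched tile were raised as well. In replicate I the next wells had a median of 0.633, and 0.477 in replicate II, against -0.109 and -0.0898 for all tiles outside the stretches. Next wells were counted once per enriched tile, so a well with an enriched tile on both sides counts for each. Enriched tiles in runs count as next wells too. Of 739 such pairs with a value, 611 (82.7%) had a next well with a mean above 0, against 41.2% of all tiles outside the stretches. Next wells that were themselves not enriched, in 491 pairs, still had medians of 0.309 and 0.224. Of their means 73.9% were above 0, against 40.0% of the other tiles. At 3 wells before, the medians were 0.315 and 0.258, and at 12 wells before they were 0.0815 and 0.0592.

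Isolated tiles had narrower shoulders. The wells before and after an isolated tile had medians of 0.219 and 0.278 in replicate I and of 0.177 and 0.144 in replicate II, and at 3 wells the medians were between -0.0801 and -0.0203. By their definition these wells hold no enriched tile, which lowers their level. In runs of at least 3 wells the medians were still 0.591 and 0.471 at 5 wells before the tile. Of 368 enriched tiles with values on both sides, 263 were higher than both next wells, 103 by at least 0.5, 27 by at least 1 and 6 by at least 2. Tiles chosen for their height exceed their next wells in part by construction. The same share over all tiles was not computed, so these counts say nothing on the shape of peaks.

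**Figure D4:**
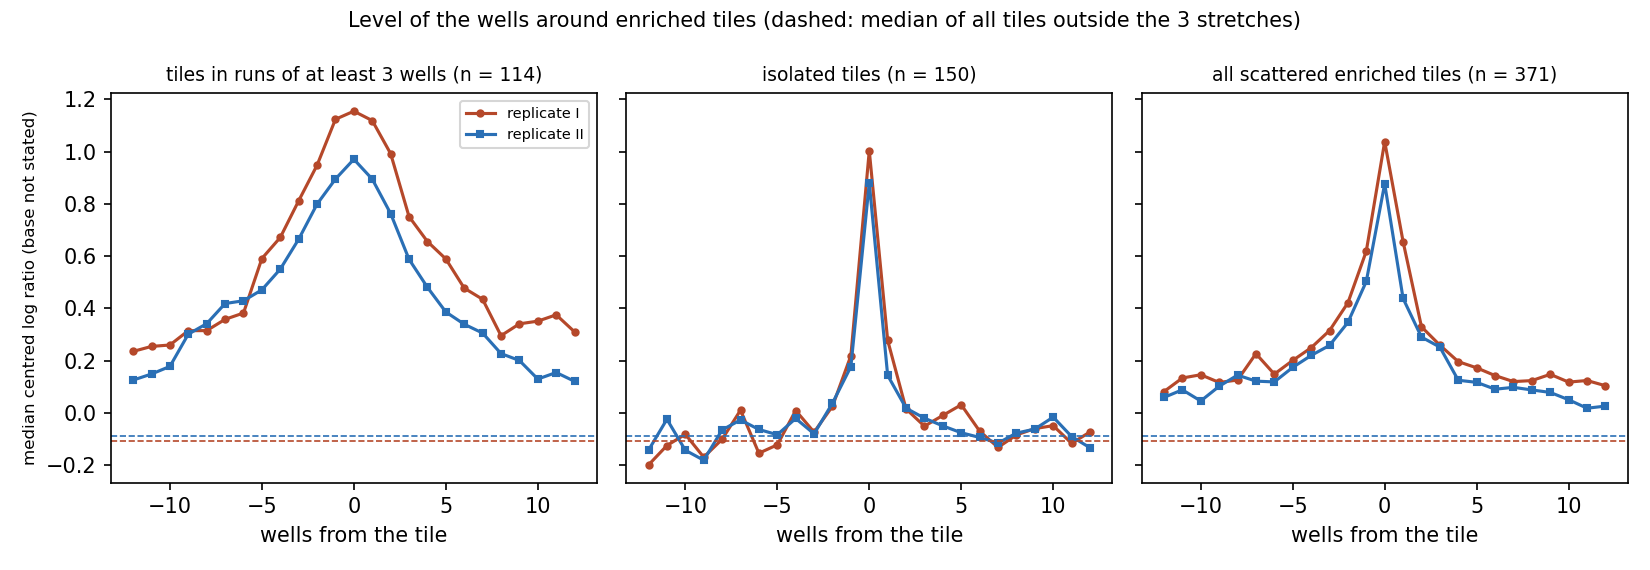
Median centred log ratio (base not stated) in wells up to 12 before and after an enriched tile, in replicates I (red) and II (blue), for tiles in runs of at least 3 wells (114), isolated tiles (150) and all 371; dashed lines mark the medians of all tiles outside the stretches. The profile falls over several wells for runs and within 2 wells for isolated tiles. By definition isolated tiles have no enriched tile within 5 wells, while wells around tiles in runs are often enriched themselves.

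Enriched tiles neighboured each other along rows more than along columns of wells. Another enriched tile stood in the next well along the row order in 33.5% of cases, and 12 wells on, which is the same column of the following row, in 7.30%. The wells 11 and 13 on had 8.11% and 6.49%. When wells were ordered by columns instead, 51 enriched tiles were in runs and the next wells averaged 0.0855, against 0.522 in row order. Enriched tiles were found in every row (from 1.41% of tiles in row H to 2.43% in row D) and every column (from 1.38% in column 10 to 2.57% in column 7). Wells at the edge of a plate had 1.77% and inner wells 2.20%.

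Isolated tiles lay on plates of ordinary level, with a median plate median of -0.102, while tiles in runs of at least 3 wells lay on plates with 0.199. In all, 148 enriched tiles were on plates with a median under 0. Isolated tiles had a median mean of 0.909 and tiles in such runs 1.02. Means of at least 1.5 were held by 13 of the 150 isolated tiles and 19 of the 114 tiles in runs. Of these 19, 16 belonged to the run that opens TA01, and without it 3 of 95 tiles in runs had such a mean, a smaller share than among isolated tiles. The SD between replicates had a median of 0.255 in isolated tiles and 0.186 in runs of at least 3 wells. It was 0.263 in runs of 2 wells and 0.166 in single tiles that were not isolated, so it did not simply follow isolation.

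A further form was a flat plateau near the threshold. In TB25, 36 consecutive wells, rows A to C, had a median of 0.706 in I and 0.564 in II, with an SD between tiles of their means of 0.121. Of these tiles, 8 (22.2%) passed the rule, and the means of all 36 lay between 0.386 and 0.901. Row H of TB24, directly before, had 0.733 and 0.597. The other 60 wells of TB25 had medians of 0.114 and 0.0717 and an SD of 0.331. Of 1500 complete rows outside the stretches, whose median SD was 0.353, 10 had an SD under 0.15. The 4 of these that also had a median above 0.5 were the rows just described, A to C of TB25 and H of TB24. The plateau was noticed after its values were seen.

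Tiles outside the stretches were also picked at 0.75 or more in 1 replicate alone and read in the other. This is no separate reading of the enriched tiles, since most picked tiles were not among them. Enriched tiles by the rule were 325 of the 1196 picked in replicate I and 260 of the 823 picked in replicate II. Any tile at 0.75 or more in both replicates meets the rule, so the 214 below are all enriched tiles. The stretches left out were also set on these values. Of 1196 tiles picked in replicate I, 214 (17.9%) reached 0.75 in replicate II, against 4.52% of all tiles outside the stretches. Of 823 picked in replicate II, the same 214 (26.0%) reached it in replicate I, against 6.58%. The share was larger in runs of at least 3 wells than in isolated tiles in both directions, and runs of 2 wells stood close to single wells. In runs of at least 3 wells picked in replicate I it was 41.3%, and 36.8% (81 of 220) without TA01. In those picked in replicate II it was 53.2%, and 46.3% (57 of 123) without TA01. Runs of at least 5 wells in the picking replicate were read only with TA01 included. In them, 64 of 102 tiles (62.7%) reached 0.75 in replicate II and 33 of 44 in replicate I. Isolated tiles did so in 42 of 400 cases (10.5%) and in 58 of 341 (17.01%). Runs of 2 wells did so in 40 of 288 cases (13.9%) when picked in replicate I, against 11.1% of single wells, and in 41 of 206 (19.9%) when picked in replicate II, against 20.6% of single wells.

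The level in the replicate not used for picking was likewise higher in the longer runs. Runs of at least 3 wells picked in replicate I had a median of 0.631 in replicate II, and isolated tiles 0.162. Runs of at least 3 wells picked in replicate II had a median of 0.803 in replicate I, and isolated tiles 0.00650. Runs of 2 wells had 0.259 in replicate II, against 0.265 for single wells, and 0.0243 in replicate I, against 0.0713 for single wells. Without TA01, the runs of at least 3 wells had 0.598 and 0.639. Of isolated tiles at 2 or more in the picking replicate, 3 of 4 picked in replicate I and 2 of 4 picked in replicate II reached 0.75 in the other. Values of neighbouring wells are not independent within a replicate, so these shares were not tested.

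**Figure D5:**
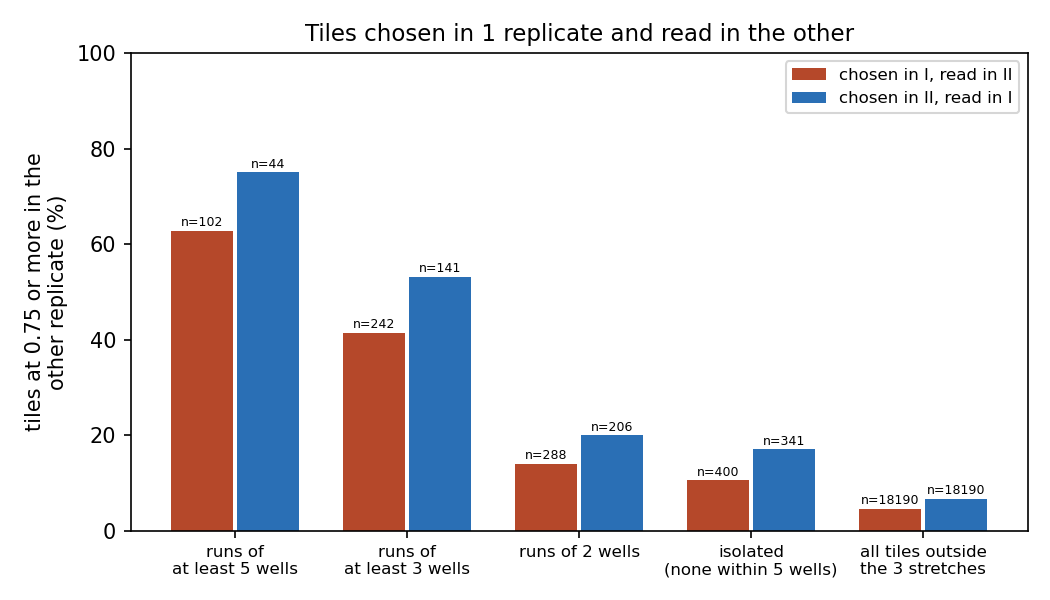
Bars give the percentage of tiles at 0.75 or more in the replicate not used to pick them, for tiles picked in replicate I and read in II (red) and the reverse (blue), by their grouping in the picking replicate, with the number of tiles above each bar. The share was 62.7% (64 of 102) and 33 of 44 tiles in runs of at least 5 wells, 13.9% and 19.9% in runs of 2 wells, 10.5% and 17.01% in isolated tiles, and 4.52% and 6.58% over all tiles outside the stretches. Plate TA01, with its run of 19 enriched wells, is included.

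Set against the 3 high stretches, both thresholds were met by 40.3% of tiles in TA35 to TA51, 21.4% in TA21 to TA30 and 54.4% in TC17 to TC30. The 371 scattered tiles made 20.7% of all 1795 tiles that met them. Their median mean was 0.938, against 1.02, 0.983 and 1.08 for such tiles in these stretches. In runs were 48.0% of the scattered tiles, against 87.8%, 78.4% and 88.9%. Where more tiles meet the thresholds, more fall next to each other, and the stretches were chosen for high plates, so no test was made. The highest single values lay outside: 4.15 in TB40, against 2.26, 2.05 and 2.29 as the highest means in the stretches. Tall tiles were nevertheless more frequent inside the stretches. Means of at least 2 were held by 9 of 18190 tiles outside. In the stretches they were held by 8 of 1544 tiles in TA35 to TA51, 1 of 886 in TA21 to TA30 and 36 of 1123 in TC17 to TC30.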

How the data were processed

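Arrays with 2 colours (4 in number) carried IP and INPUT DNA of replicates I and II with dyes exchanged within a replicate, and DNA was amplified and labelled directly, per the labels' protocols. The deposited table holds the authors' log ratio for every spot and array, handled as a score because its base is unstated per the labels. How background was corrected and ratios normalized, and on which genome build, is not given in the sources used here. Of 21800 spots, 21743 tiles had values. The median over all tiles was subtracted from each replicate, without loess or quantile normalization.

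Tiles, thresholds and lists were chosen with earlier results of these data known. Apart from limma on all tiles (version 3.58.1, R 4.3.3, intercept only, eBayes), which was tested on simulated data, results are descriptions. The functions for runs and isolation were tested on known positions. Python 3.11.15 with pandas 2.3.3, numpy 2.4.6, matplotlib 3.10.9 and SciPy 1.17.1 did the other steps. Named tiles were the 10 highest, the 5 highest isolated, the 5 with the largest difference between replicates, 3 on each side of each threshold, runs of at least 5 wells and the 5 fullest plates. Further tiles, plates and blocks of plates were picked after their values were seen. The number of arrays limits the precision.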

Additional observations from a re-analysis of the deposited data

How the results depend on the processing

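Of 77 alternatives for counts and levels, 35 stayed within 1.5 times the count or 1 SD of the replicates. Removing TA01 or TA52 to TA59, and reading tiles in the replicate that did not pick them, were chosen after the data were seen. Without centring, which lowers every mean by 1.28, 8 tiles passed the rule on 4 plates, 3 of them in runs and 5 isolated, the next wells averaged -0.505 in place of 0.522, TB28D05 had -0.136, and the runs starting at TA52A01, TA55G02, TA57E06, TA57F01, TA59D07, TA59G01, TA70C09 and TB06F05 had -0.131, -0.228, -0.314, -0.256, -0.316, -0.293, -0.212 and -0.114. Centring on the tiles outside the stretches gave 598 tiles, 271 in runs and 250 isolated, since it lowers the bar. Removing plate medians gave 506 tiles (261 of the 371 among them), 251 isolated, with next wells at 0.398. A mean of at least 1 gave 151 tiles on 72 plates, 70 in runs, 67 isolated and next wells at 0.635. Single replicates, which need only 1 value to pass, gave 823 to 1196 tiles, 347 to 530 in runs, 341 to 400 isolated, next wells at 0.256 to 0.258 and 183 to 189 plates. Ordering wells by columns gave 51 in runs, 254 isolated and next wells at 0.0855. Next wells that were no enriched tiles averaged 0.219. Without TA52 to TA59, 102 were in runs.

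By limma, 1792 tiles were higher and 844 lower. These counts were 872 and 174 at the stricter adjusted p (0.01), 68 and 18973 without centring, 51 and 0 with equal median absolute deviations (2380 lower at an unadjusted p under 0.05), 0 and 0 with plate medians removed (1887 and 1753 unadjusted), and 47 and 16 with only the tiles outside the stretches. Lower tiles became 1549 with trend and robust prior, 463 with centring on the mode and 455 with centring on the tiles outside. Apart from construction, the cause was not tested. No paired analysis was possible because all samples form 1 group. Leaving out a replicate leaves no limma test, so it was not run there.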
